A study of Mus musculus with 18 samples.

Results

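Interferon-stimulated genes are the genes that a cell switches on when interferons bind its receptors. The expression of 42 of them, chosen by symbol from their known response to interferon, was followed in the livers of wild-type mice and of mice lacking a functional *Gpr180*. The choice was made with earlier results of these data known. They were 42 of the 23352 gene symbols in the expression tables, all 42 were found, and each had 1 entry with no failed estimate. They fell into 5 roles: 5 transcription factors and signal transducers, 3 cytosolic RNA sensors, 22 antiviral effectors and modifiers driven mainly by type I interferon, 8 GTPases induced by interferon-gamma, and 4 genes of the immunoproteasome and of peptide transport. The effectors, the sensors, *Irf7*, *Irf9* and *Stat2*, 28 genes together, are called type I targets below.

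*Gpr180* encodes a membrane protein named as a G protein-coupled receptor, and the comparison asks which liver transcripts differ when it is lost. Whole-liver poly(A) RNA of 9 animals of each genotype was sequenced, and every library came from a single mouse. All were male, 20 weeks old, of the C57BL/6J background and fed a high-fat diet (HFD). The *Gpr180*KO mice carried a CRISPR/Cas9 deletion of exon 6 of *Gpr180* in every tissue, so the gene was disrupted in hepatocytes and in immune and stromal cells alike. The sample titles come in 2 styles, called series 1 (4 wild-type and 4 *Gpr180*KO mice) and series 2 (5 and 5).

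Type I interferons are secreted after a cell detects foreign nucleic acid, and signal through a complex that holds STAT2 and IRF9 and reads the interferon-stimulated response element (ISRE) in promoters. Interferon-gamma, made by T and NK cells, acts through another promoter element, the gamma-activated site (GAS). In the liver, hepatocytes, Kupffer cells and endothelial cells all answer to interferon, and most stimulated genes keep a low basal level without infection.

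RefSeq promoter windows of GRCm38.p6 were matched for 32 of the 42 genes, and 18 of these held a match to at least one of the elements. A few are shown so that the letters behind the counts can be read. Windows were not used for *Dhx58*, *Oas2*, *Mx1*, *Mx2*, *Usp18*, *Parp14*, *Zbp1*, *Rtp4*, *Gbp6* and *Iigp1*. The core of the ISRE, GAAA followed by any 2 bases and GAAA again, on either strand, was present in the 250 bases before the start site of 13 of the 32 genes (40.6%), against 3.46% of the 27025 genes with a window. The GAS letters, TTCNNNGAA, which read the same on both strands, were present in 10 of 32 (31.2%), against 8.13%. For a motif unrelated to interferon, the GC box GGGCGG on either strand, the shares were 46.9% and 35.4%. A match is a description of letters and not a tested binding site.

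Matches to the ISRE core, in capitals, stood close to the start in effectors of the ISG15 and IFIT families and in *Gbp3*. Matches overlapped each other in *Isg15* (3 matches, chr4:156200855-156200916, minus strand) and in *Gbp3* (2 matches, chr3:142559979-142560034, plus strand). *Ifit1* (chr19:34640765-34640833, plus strand) and *Ifit3* (chr19:34583353-34583436, plus strand) each had a pair of matches.

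Isg15: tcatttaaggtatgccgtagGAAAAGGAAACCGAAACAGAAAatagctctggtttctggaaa
Gbp3: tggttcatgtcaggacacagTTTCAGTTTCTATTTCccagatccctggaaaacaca
Ifit1: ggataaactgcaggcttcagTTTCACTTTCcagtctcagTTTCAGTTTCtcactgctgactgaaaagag
Ifit3: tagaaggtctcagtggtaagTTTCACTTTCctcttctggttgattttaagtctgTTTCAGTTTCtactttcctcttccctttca

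Matches to both elements were found in *Bst2*, *Oas1a*, *Gbp7*, *Igtp* and *Irgm2*. In *Bst2* (chr8:71537567-71537628, minus strand) the GAS letters ran into the first ISRE core, the only such overlap among 12 GAS and 21 ISRE matches. *Igtp* (chr11:58199491-58199551, plus strand) and *Irgm2* (chr11:58214882-58214942, plus strand) are neighbours, and over the 61 bases shown 59 were identical. Capitals mark the GAS letters and the ISRE core.

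Bst2: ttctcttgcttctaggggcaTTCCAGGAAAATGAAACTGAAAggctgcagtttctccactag
Igtp: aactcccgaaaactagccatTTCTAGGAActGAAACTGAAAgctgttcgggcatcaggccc
Irgm2: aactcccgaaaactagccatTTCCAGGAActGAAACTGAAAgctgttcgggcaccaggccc

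All 6 GTPase genes with a window had the ISRE core (*Gbp2*, *Gbp3*, *Gbp7*, *Igtp*, *Irgm1* and *Irgm2*), and 3 of the 6 also had GAS letters. Of the 5 transcription factor genes, *Irf1* (chr11:53769904-53769952, plus strand) and *Irf8* (chr8:120736167-120736233, plus strand) had GAS letters, in capitals here, and *Stat2* had the ISRE core.

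Irf1: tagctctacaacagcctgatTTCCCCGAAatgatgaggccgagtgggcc
Irf8: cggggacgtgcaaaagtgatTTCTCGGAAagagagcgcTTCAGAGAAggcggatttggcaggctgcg

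None of the 4 immunoproteasome and transport genes had the ISRE core in its window, and *Psmb8* alone had GAS letters. *Psmb9* and *Tap1* are transcribed away from each other, and the 225 bases between their starts (chr17:34187331-34187555, shown in the direction of *Tap1*) hold 1 GC box, in capitals on the opposite strand.

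Tap1: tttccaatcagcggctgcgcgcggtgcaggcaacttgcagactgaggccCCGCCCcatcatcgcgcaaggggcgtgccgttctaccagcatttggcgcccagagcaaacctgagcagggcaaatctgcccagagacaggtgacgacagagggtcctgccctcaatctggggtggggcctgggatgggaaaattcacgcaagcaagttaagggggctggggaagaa

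The labels were checked before the comparison. *Gpr180* ranged from 4.46 to 9.24 FPKM (median 7.29) in wild-type and from 0.876 to 1.99 FPKM (median 1.79) in *Gpr180*KO livers, where FPKM is the number of fragments of a gene relative to its transcript length and to the mapped reads of the library. The groups did not overlap, and the difference was -2.0 on the log2(FPKM + 0.1) scale (limma, adjusted p = 4.74e-06). The hepatocyte gene *Ttr* (transthyretin) had at least 3153 FPKM in every library. Depth relative to the deepest library lay between 44.4 and 100%, and FPKM sums between 554796 and 718746, the highest being that of the *Gpr180*KO mouse KO51. KO51 stood apart, with a mean correlation of 0.919 with the other libraries across genes, against 0.946 for the next lowest.

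In KO51 the level of an interferon-stimulated gene ran with the length of its transcript. Each level in KO51 was set against the median of the other *Gpr180*KO libraries on the log2 scale. For the 9 members with transcripts under 2000 nt the median difference was 0.49, although *Ifit3* and *Usp18* were lower in KO51. The 24 members of 2000 to 4000 nt had a median of -0.54, although 2 of them were highest in KO51. The 9 members of 4000 nt or more were lowest in KO51 in 9 of 9 cases (median -1.35). Over all genes tested the same medians were 0.49, -0.11 and -0.82, so the slope was not confined to interferon genes. *Bst2*, *Psmb10* and *Isg15* were on the high side, and *Gbp7*, *Gbp6* and *Eif2ak2* on the low side.

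**Figure D1:**
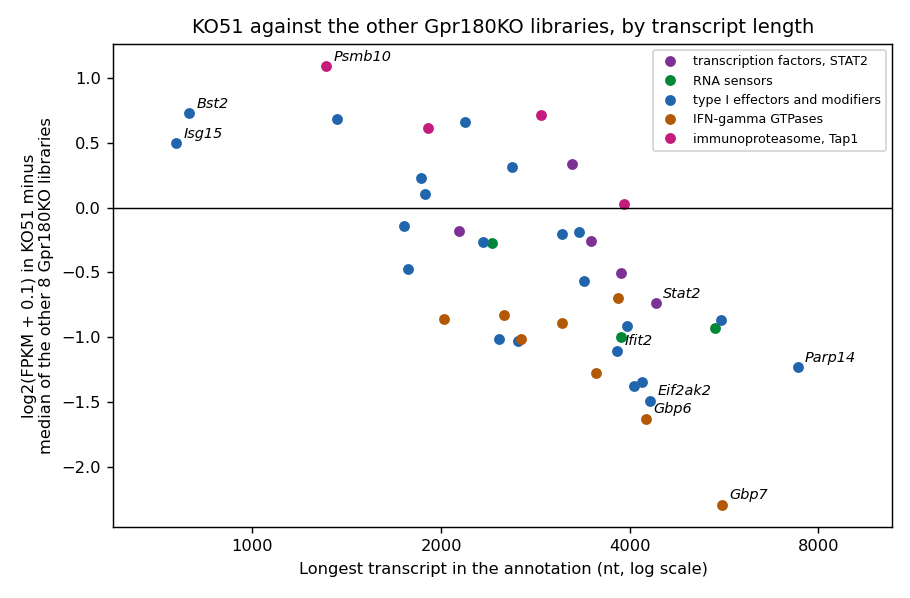
Log2(FPKM + 0.1) of each of the 42 genes in KO51 minus the median of the other 8 *Gpr180*KO libraries (vertical axis), against the longest annotated transcript (nt, log scale). Points are genes, coloured by role. The 9 genes of 4000 nt or more all lie below 0, with a median of -1.35, and the 9 genes under 2000 nt have a median of 0.49.

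Basal expression was modest for most of the 42 genes. Their mean over the 18 libraries ran from 0.634 FPKM (*Mx1*) to 143 FPKM (*Bst2*), with a median of 7.25. In all, 17 genes had a mean above 10 FPKM, 11 lay between 5 and 10, 12 between 1 and 5, and 2 (*Oas2* and *Mx1*) were under 1. No gene was listed at 0 in any library. The most abundant were *Bst2* (tetherin, which holds budding virus at the cell surface), *Iigp1* (124 FPKM, a GTPase acting on parasite vacuoles) and *Lgals3bp* (54.9 FPKM, a secreted glycoprotein). *Mx1*, the influenza resistance gene that C57BL/6 mice carry in a defective form, was the lowest. The confidence interval that the tables give with each FPKM had a median half-width of 3.66% of the value for *Iigp1* and of 40.4% for *Mx1*.

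None of the 40 members tested passed for a genotype difference. Of the 40 with a mean of at least 1 FPKM, 0 were called lower and 0 higher in *Gpr180*KO livers (limma on log2(FPKM + 0.1), Benjamini-Hochberg adjusted p under 0.05), against 4.73% of the 10835 genes tested, of which 4.28% were lower and 0.452% higher. At an unadjusted p under 0.05 there were 5 members, all lower (*Lgals3bp*, *Ifit2*, *Irf8*, *Oasl2* and *Stat2*), where all genes had 19.6% lower and 2.54% higher. No member had all *Gpr180*KO libraries on one side of all wild-type libraries, which 0.175% of all genes did on the low side and 0.0554% on the high side. In whole liver, fewer cells of a type and less RNA per cell cannot be told apart, here and in all results that follow.

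The differences leaned to the low side no more than those of other genes. The sign was negative for 29 of 40 members, and 76.9% of all genes tested had a negative sign. The median difference was -0.08 for the members and -0.13 for all genes. FPKM does not correct for a shift that all genes share, and scaling the libraries by the median of ratios moved the median of all genes to -0.01 and that of the members to 0.04, with 18 negative and 22 positive. Calls over all genes moved from 464 lower and 49 higher to 168 (1.55%) and 112 (1.03%) under that scaling, and no member was called. The precision was moderate: the half-width of the 95% confidence interval ran from 0.19 to 0.60 (median 0.32) on the log2 scale, and for 39 of 40 members the whole interval lay within 1 log2 unit of 0.

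**Figure D2:**
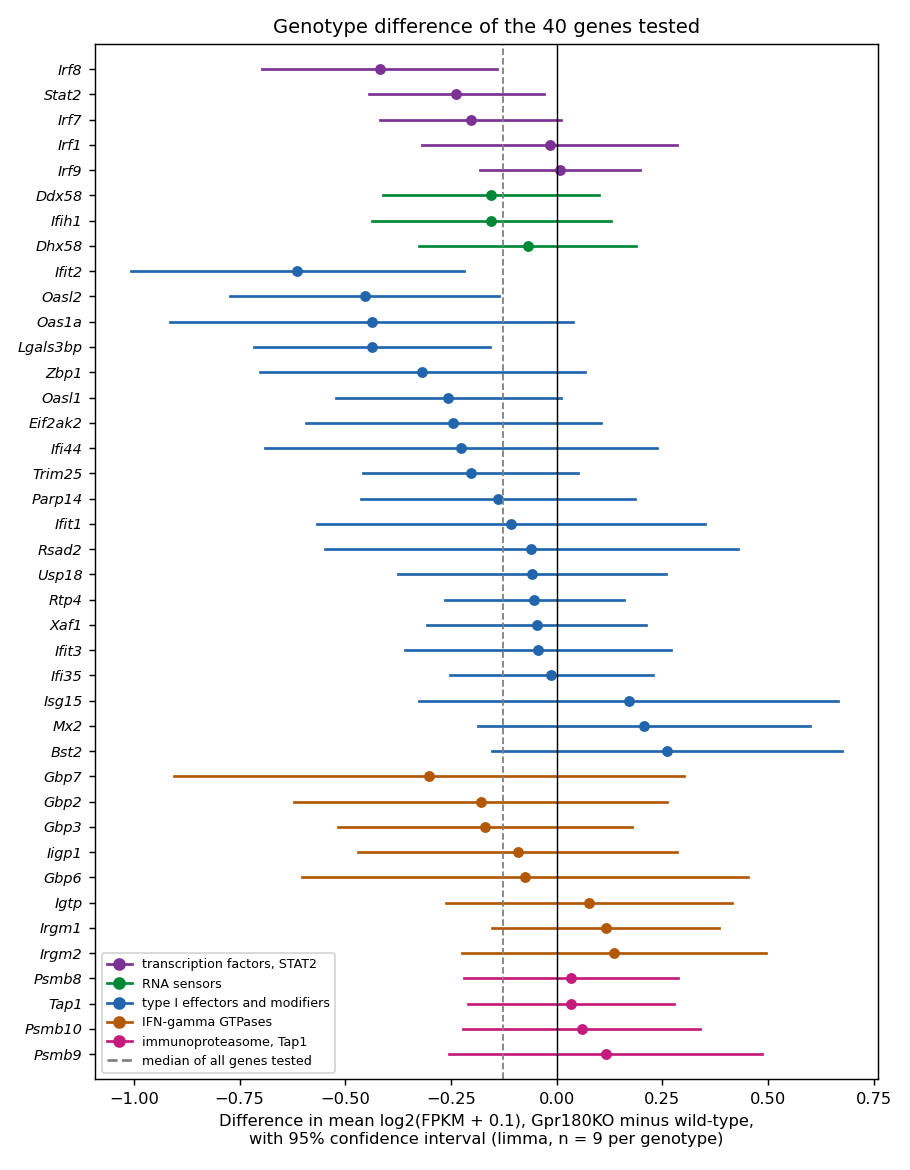
Difference in mean log2(FPKM + 0.1), *Gpr180*KO minus wild-type, with its 95% confidence interval (limma, n = 9 per genotype), for the 40 genes tested, ordered by role and then by size. The dashed line is the median of all genes tested, -0.13. The intervals of 5 genes lie wholly below 0 and none lies wholly above it.

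By role, the median difference was -0.20 for the 5 transcription factors and transducers, -0.15 for the 3 RNA sensors, -0.12 for the 20 effectors tested, -0.08 for the 8 GTPases and 0.05 for the 4 immunoproteasome and transport genes. For the type I targets it was -0.15, with 22 of 26 negative. The mean log2 level of each role in each library gave the same picture. The mean over all 42 genes was 2.98 ± 0.21 (SD, n = 9) in wild-type and 2.86 ± 0.22 in *Gpr180*KO livers, a difference of -0.13 to which no test was applied. For type I targets it was 2.67 ± 0.22 and 2.51 ± 0.20. For the GTPases it was 3.60 ± 0.15 and 3.54 ± 0.51, and without KO51 the sign of their difference turned, from -0.06 to 0.07. For the immunoproteasome and transport genes it was 4.01 ± 0.23 and 4.07 ± 0.30, and without KO51 the difference moved from 0.06 to -0.01. With median-of-ratios scaling the difference over all members was 0.00 when rounded. The median difference under that scaling was -0.08 for the transcription factors and transducers, -0.03 for the RNA sensors and -0.002 for the effectors. It was 0.04 for the GTPases and 0.17 for the immunoproteasome and transport genes. For the type I targets it was -0.02, with 14 of 26 negative.

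**Figure D3:**
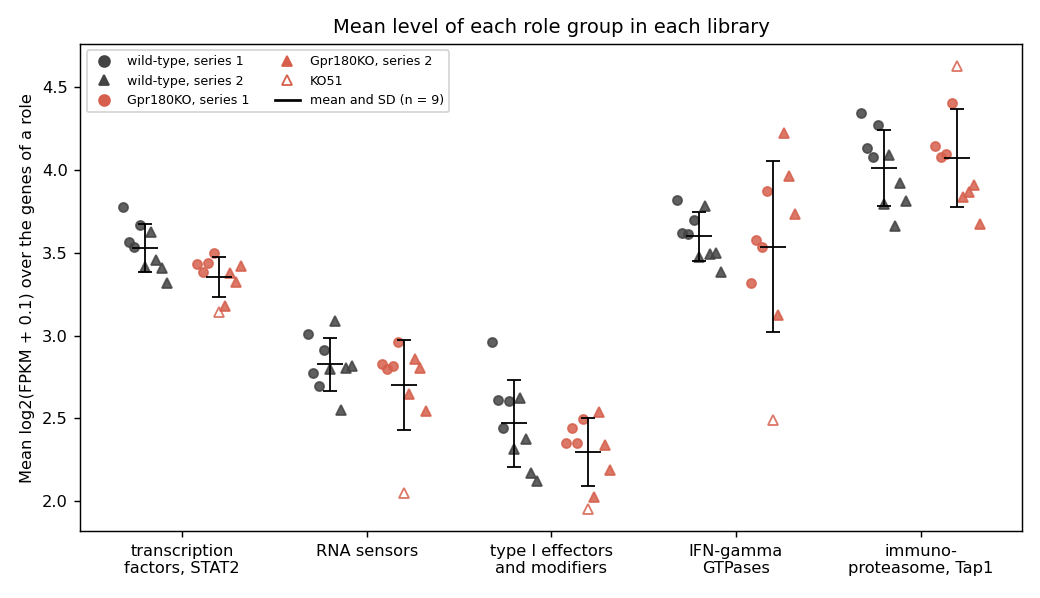
Mean log2(FPKM + 0.1) over the genes of each role (vertical axis) in each library. Circles are series 1, triangles series 2, the open triangle KO51, and bars the mean and SD of 9 libraries. The genotypes overlap in all 5 roles, and KO51 is the lowest point in 4 of them and the highest in the immunoproteasome group.

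Among the transcription factors, *Irf8*, the factor that shapes the monocyte and dendritic cell lineages, had the largest difference. It ranged from 2.08 to 4.0 FPKM (median 2.95) in wild-type and from 1.83 to 2.73 FPKM (median 2.15) in *Gpr180*KO livers. The wild-type median exceeded the value of all 9 *Gpr180*KO livers, but 3 alone fell short of the lowest wild-type liver. The difference was -0.42 ± 0.13 (standard error), with an adjusted p of 0.0712 from limma. *Stat2*, the transducer specific to type I and III interferon, was tight in wild-type livers, from 14.4 to 16.9 FPKM (median 15.4). In *Gpr180*KO livers it ran from 8.31 in KO51 to 15.7 FPKM (median 12.9), a difference of -0.24 ± 0.10 (adjusted p = 0.167). The 4 *Gpr180*KO livers of series 1 had 15.1 to 15.7 FPKM of *Stat2*, within the wild-type range, and the 5 of series 2 had 8.31 to 12.9 FPKM, all below it.

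*Irf7*, the factor that amplifies the type I response, ran from 15.4 to 24.3 FPKM (median 17.3) in wild-type and from 12.7 to 20.3 FPKM (median 16.5) in *Gpr180*KO livers (difference -0.20 ± 0.10, adjusted p = 0.251). *Irf1*, the early factor induced by interferon-gamma, ran from 11.4 to 20.9 FPKM (median 15.6) and from 9.44 to 18.6 FPKM (median 16.7), a difference of -0.02 ± 0.15. *Irf9*, the DNA-binding partner of STAT2, had medians of 14.6 and 14.5 FPKM (difference 0.01 ± 0.09). Only the first of these 3 had a difference beyond its own standard error, and each pair of ranges overlapped.

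No RNA sensor came near the threshold. *Ifih1* (MDA5, which binds long double-stranded RNA) had 6.49 to 9.47 FPKM (median 7.72) in wild-type and 3.70 to 9.39 FPKM (median 7.0) in *Gpr180*KO livers. *Ddx58* (RIG-I, which binds RNA with a 5′ triphosphate) had 5.96 to 8.57 FPKM (median 7.70) and 3.72 to 7.91 FPKM (median 7.51). *Dhx58* (LGP2, a modulator of both) had medians of 5.47 and 5.48 FPKM. The differences were -0.15, -0.16 and -0.07, the adjusted p 0.505, 0.455 and 0.753. The lowest *Gpr180*KO value of *Ifih1* and *Ddx58* was that of KO51, whose transcripts of 5470 and 3874 nt are among the longer ones, and without KO51 the differences of the 3 sensors were -0.04, -0.05 and -0.04.

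Of the effectors, *Ifit2*, *Lgals3bp* and *Oasl2* came closest to the threshold, and all 3 were lower in *Gpr180*KO livers. *Ifit2*, which binds viral RNA and limits its translation, ranged from 1.40 to 3.42 FPKM (median 2.08) in wild-type and from 0.640 to 1.83 FPKM (median 1.45) in *Gpr180*KO livers. No *Gpr180*KO liver reached the wild-type median, and 4 of the 9 were under the lowest wild-type liver. The difference was -0.61 ± 0.19, the largest of all members (adjusted p = 0.0630), and without KO51 it was -0.49 (adjusted p = 0.0618).

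*Lgals3bp* ranged from 51.1 to 80.4 FPKM (median 60.9) in wild-type and from 30.5 to 61.7 FPKM (median 42.1) in *Gpr180*KO livers. In series 2 the groups were apart, with 51.1 to 65.5 FPKM in 5 wild-type and 30.5 to 42.1 FPKM in 5 *Gpr180*KO livers, while in series 1 the lowest wild-type liver had 60.9 FPKM and the highest *Gpr180*KO liver 61.7 FPKM. The difference was -0.44 ± 0.13 (adjusted p = 0.0622). *Oasl2*, an oligoadenylate synthetase-like protein, ranged from 1.29 to 3.40 FPKM (median 2.72) and from 1.55 to 2.13 FPKM (median 1.76). Over both series its *Gpr180*KO values lay inside the wild-type range, at its lower end (difference -0.45 ± 0.15, adjusted p = 0.0865). In series 1 the groups were apart for *Oasl2*, with 2.72 to 3.40 FPKM in wild-type and 1.60 to 2.00 FPKM in *Gpr180*KO livers. In series 2 they overlapped, with 1.29 to 2.97 FPKM and 1.55 to 2.13 FPKM. How many of all genes had the genotypes apart within a series was not counted.

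*Bst2*, the most abundant member, had the largest difference to the high side. It ranged from 81.2 to 192 FPKM (median 136) in wild-type and from 95.9 to 239 FPKM (median 162) in *Gpr180*KO livers (difference 0.26 ± 0.20, adjusted p = 0.442). The highest value was that of KO51, and its transcript of 792 nt is among the shortest. *Isg15*, the ubiquitin-like modifier attached to proteins after interferon, had 4.47 to 19.6 FPKM (median 8.73) and 5.90 to 16.2 FPKM (median 11.5), and *Usp18*, the protease that removes it, had medians of 5.01 and 5.48 FPKM. *Ifit1* and *Ifit3*, partners of *Ifit2*, had medians of 3.99 and 4.12 FPKM and of 6.85 and 6.92 FPKM. *Rsad2* (viperin, which makes a chain-terminating nucleotide) had medians of 3.86 and 4.11 FPKM. The differences of these 5 genes lay between -0.11 and 0.17, so *Ifit2* was the sole IFIT gene with an interval clear of 0.

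The remaining effectors gave differences between -0.44 and 0.21. *Oas1a*, which makes the 2-5A signal for RNA decay, had medians of 2.92 and 2.28 FPKM (difference -0.44 ± 0.23, adjusted p = 0.268), and reads of the related genes *Oas1b*, *Oas1c* and *Oas1g* may not all be told apart from it. *Zbp1* (a sensor of Z-form nucleic acid) had a difference of -0.32, *Oasl1* of -0.26, *Eif2ak2* (PKR, which stops translation) of -0.25, *Ifi44* of -0.23, *Trim25* (a ubiquitin ligase of the RIG-I pathway) of -0.20 and *Parp14* of -0.14. Without KO51 the differences of *Eif2ak2*, *Ifi44*, *Trim25* and *Parp14* were -0.08, -0.07, -0.11 and 0.00 when rounded, and those of *Zbp1* and *Oasl1* -0.29 and -0.32. *Rtp4*, *Xaf1* and *Ifi35* stood between -0.05 and -0.01, and *Mx2* at 0.21. The 2 genes below the minimum, *Oas2* and *Mx1*, had medians of 1.15 and 0.764 FPKM and of 0.611 and 0.553 FPKM in wild-type and *Gpr180*KO livers, and were not tested.

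The GTPases, which attack the vacuoles of intracellular pathogens, varied more among *Gpr180*KO than among wild-type livers. *Iigp1* ranged from 91.1 to 164 FPKM (median 135) in wild-type and from 64.5 to 197 FPKM (median 114) in *Gpr180*KO livers. *Irgm1*, a regulator of the other IRG proteins, ranged from 21.3 to 33.2 FPKM (median 28.0) and from 20.1 to 44.6 FPKM (median 32.2). *Gbp7*, a guanylate-binding protein, ranged from 2.61 to 5.08 FPKM (median 3.59) and from 0.629 to 5.35 FPKM (median 2.93). KO51 was the lowest *Gpr180*KO library for 7 of the 8 GTPases and KO53 the highest for 6 of 8, so the wider spread had both ends in named libraries.

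The fold differences of the GTPases were small and of both signs. *Irgm2*, *Irgm1* and *Igtp* were at 0.14, 0.12 and 0.08, and *Gbp6*, *Iigp1*, *Gbp3*, *Gbp2* and *Gbp7* at -0.07, -0.09, -0.17, -0.18 and -0.30. Adjusted p ranged from 0.546 for *Gbp7* to 0.875 for *Gbp6*. Without KO51 *Irgm2*, *Irgm1* and *Igtp* were at 0.28, 0.19 and 0.17, *Gbp6* and *Iigp1* at 0.10 and 0.01, and *Gbp3*, *Gbp2* and *Gbp7* at -0.05, -0.09 and -0.05. *Gbp2* had 2.68 to 6.21 FPKM (median 4.70) in wild-type and 2.32 to 6.27 FPKM (median 4.06) in *Gpr180*KO livers. *Gbp6* has close relatives, *Gbp10* among them, with which it may share reads.

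**Figure D4:**
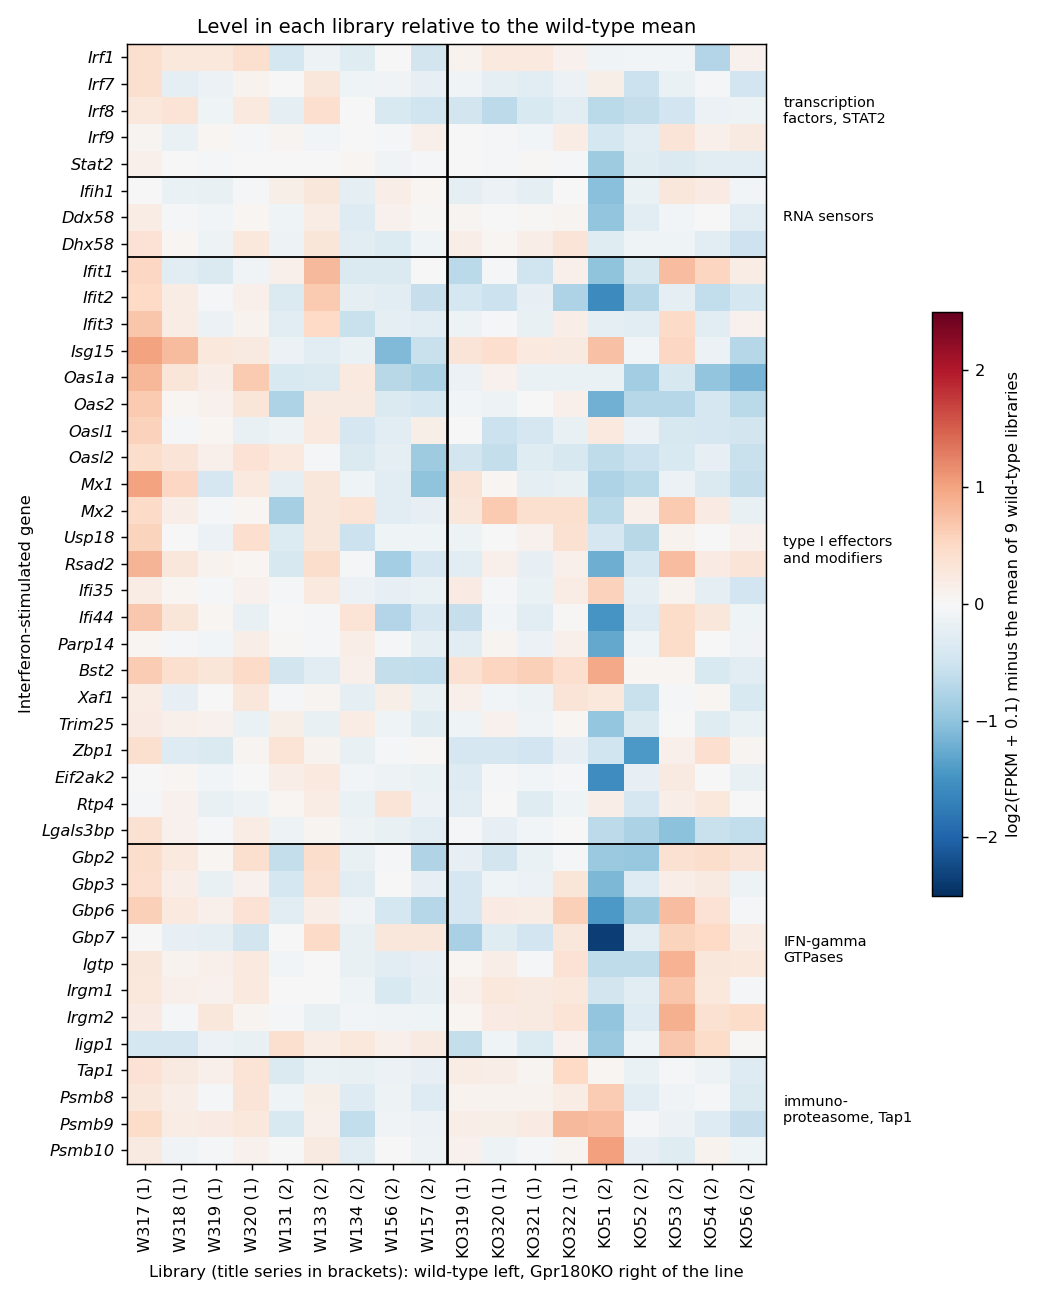
Log2(FPKM + 0.1) of the 42 genes (rows, by role) in the 18 libraries (columns, title series in brackets), minus the mean of the 9 wild-type libraries. Red is higher and blue lower. No row separates the genotypes, W317 is the reddest wild-type column, and KO51 (blue for long transcripts) and KO53 (red for GTPases) stand out among the *Gpr180*KO columns.

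The immunoproteasome replaces the 3 catalytic subunits of the constitutive proteasome with *Psmb8*, *Psmb9* and *Psmb10*, and *Tap1* carries the peptides into the endoplasmic reticulum for MHC class I. *Psmb8* ranged from 16.4 to 25.5 FPKM (median 20.2) in wild-type and from 16.0 to 31.8 FPKM (median 21.7) in *Gpr180*KO livers. *Psmb9* ranged from 12.3 to 26.2 FPKM (median 20.7) and from 12.6 to 33.4 FPKM (median 20.9). *Psmb10* ranged from 12.6 to 18 FPKM (median 15.2) and from 12.5 to 31.3 FPKM (median 15.0). The values of *Psmb8* and *Psmb10* were highest in KO51, and the differences of the 4 genes, *Tap1* included, lay between 0.03 and 0.12 with adjusted p from 0.713 to 0.885. Without KO51 they were -0.04 for *Psmb8*, 0.03 for *Psmb9*, -0.06 for *Psmb10* and 0.03 for *Tap1*.

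A ratio within a library does not depend on the scaling between libraries, so each inducible subunit was also set against the constitutive subunit it replaces. *Psmb8* stood at 21.9 ± 2.06% of *Psmb5* in wild-type and at 23.8 ± 3.50% in *Gpr180*KO livers (SD, n = 9). *Psmb9* stood at 18.1 ± 5.06% and 20.7 ± 6.70% of *Psmb6*, and *Psmb10* at 10.9 ± 1.09% and 11.3 ± 1.74% of *Psmb7*. The log2 ratios differed by 0.11, 0.18 and 0.05, within the spread of the livers (two-sided exact permutation test over 48620 splits, p = 0.184, 0.387 and 0.55, each 0.55 after adjustment over the 3 ratios). Those splits mixed the title series, and within series 1 the differences were 0.10, 0.072 and 0.065 (exact permutation test, adjusted p = 0.771, 0.943 and 0.771) and within series 2 0.12, 0.27 and 0.044 (0.464, 0.464 and 0.770). No inducible subunit exceeded 36.1% of its constitutive counterpart in any liver. For *Psmb9* the wild-type livers had 21.8 to 25.6% in series 1 and 11.3 to 16.5% in series 2. The *Gpr180*KO livers had 20.2 to 36.1% and 11.8 to 20.9%, ranges that overlapped.

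**Figure D5:**
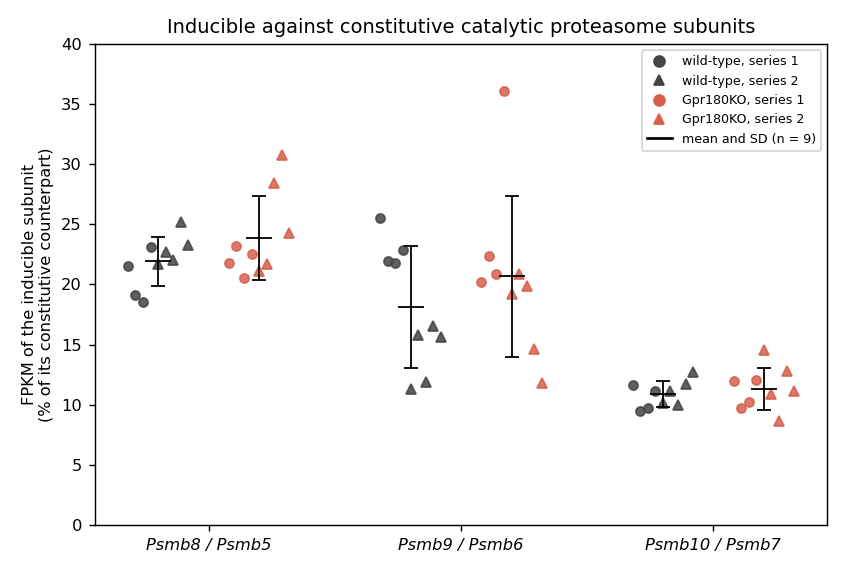
FPKM of each inducible catalytic subunit as a percentage of its constitutive counterpart (vertical axis) in each library, with the mean and SD of 9 libraries per genotype. Circles are series 1 and triangles series 2. The genotypes overlap in all 3 ratios, and the wild-type circles of *Psmb9* / *Psmb6* all lie above the wild-type triangles.

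Levels of some members ran with the title series, as did those of many other genes. Among wild-type livers alone, 8 of the 40 members tested were higher in all 4 livers of series 1 than in all 5 of series 2 (*Irf1*, *Isg15*, *Bst2*, *Igtp*, *Irgm1*, *Irgm2*, *Tap1* and *Psmb9*), where 13.2% of all genes were. *Isg15* had 11.3 to 19.6 FPKM in series 1 and 4.47 to 8.73 FPKM in series 2, and *Bst2* 153 to 192 FPKM and 81.2 to 136 FPKM. *Iigp1* alone was the other way round (91.1 to 111 FPKM, then 135 to 164 FPKM), where 8.07% of all genes were. Among *Gpr180*KO livers 5 members were higher throughout series 1 (*Stat2*, *Dhx58*, *Oas1a*, *Lgals3bp* and *Tap1*), with 13.0% of all genes. *Tap1* was the member apart in both genotypes (3.73% of all genes), at 12 to 14.1 and 8.60 to 9.94 FPKM in wild-type and 11.6 to 15.5 and 8.82 to 11.3 FPKM in *Gpr180*KO livers. Only for wild-type livers with series 1 higher was the share of members above that of all genes. What the title styles stand for is not given in the labels.

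Within the series, the calls of members changed in number. In series 1 alone 5 members passed as lower (*Irf8*, *Ifit2*, *Oasl2*, *Oas1a* and *Gbp2*), against 5.29% of all genes, and in series 2 alone none did, where 1 of all 10725 genes was called lower and 0 higher, so that the count there says nothing of the members. In series 1 every *Gpr180*KO liver lay below every wild-type liver for these 5 genes, and also for *Irf1*, which was not called. The share of all genes apart in that way was not counted, so this separation says nothing particular to the members. With the series as a block, *Irf8*, *Ifit2*, *Oasl2* and *Lgals3bp* passed, 4 of 40 against 9.52% of all genes. The difference in series 1 was -0.76 for *Oasl2*, -0.68 for *Ifit2* and -0.62 for *Irf8*, and in series 2 it was -0.21, -0.56 and -0.25. The interaction of genotype and series was called for 0 of the 10835 genes (limma, 833 at an unadjusted p under 0.05). Among members its lowest unadjusted p were 0.0232 for *Stat2* and 0.0306 for *Lgals3bp*, both lower mainly in series 2, so a difference between the series was not shown for any member.

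Other settings moved a few genes across the threshold. TPM scaling gave *Lgals3bp* (1 member, with 5.53% of all genes lower), weights per library gave *Irf8*, *Ifit2*, *Oasl1* and *Oasl2* (4 members, 10.7%), and leaving out the wild-type mouse W157 gave *Irf8*, *Lgals3bp*, *Ifit2* and *Oasl2* (4 members, 7.77%). Without KO51 no member was called (6.46% of all genes lower). In no setting was a member called higher.

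The rest of the pathway was read from 100 further genes in 6 lists, of which 80 were tested. Of these, 6 were called lower and 1 higher, where 4.28% and 0.452% of all genes were. The interferon genes themselves were at or near 0: *Ifnb1*, *Ifna2*, *Ifna4*, *Ifna5*, *Ifnl2* and *Ifnl3* were listed at 0 in all 18 libraries, and *Ifng* and *Ifnk* did not exceed 0.102 and 0.316 FPKM. None of these 8 ligands was tested.

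Of the 12 receptor and JAK-STAT genes tested, *Ifngr2*, the signalling chain of the interferon-gamma receptor, and *Il10rb*, the chain shared by the receptors of interferon-lambda and interleukin 10, were lower. *Il10rb* ranged from 4.54 to 8.62 FPKM (median 6.93) in wild-type and from 3.63 to 5.71 FPKM (median 4.37) in *Gpr180*KO livers (difference -0.58 ± 0.12, limma adjusted p = 0.0169). *Ifngr2* ranged from 9.66 to 16.7 FPKM (median 12) and from 8.52 to 11.4 FPKM (median 9.30), with a difference of -0.40 ± 0.10 (adjusted p = 0.0285), and was not called with median-of-ratios scaling (adjusted p = 0.102). *Ifnar2*, a chain of the type I receptor and the most abundant of the list at 54.2 FPKM, had a difference of 0.02. The other chains, *Ifnar1* and *Ifngr1*, had differences of -0.23 and -0.36 (adjusted p = 0.0655 and 0.0582, and 0.459 and 0.187 with median-of-ratios scaling). The sign was negative for 10 of the 12 genes tested, where 76.9% of all genes tested had a negative sign. The median difference of the list was -0.23, and -0.10 with median-of-ratios scaling.

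None of the 12 tested genes that sense nucleic acid upstream of interferon was called. Their most abundant gene, *Mavs*, the mitochondrial adaptor of the RNA sensors, had a mean of 41.0 FPKM and a difference of -0.20 (adjusted p = 0.178). Of 40 other interferon-stimulated genes tested, 4 were lower and 1 higher (4.28% and 0.452% of all genes). *Ifi27l2b*, of the Ifi27 family, ranged from 8.65 to 54.3 FPKM (median 24.8) in wild-type and from 1.74 to 27.9 FPKM (median 10.7) in *Gpr180*KO livers (difference -1.87 ± 0.49, adjusted p = 0.0373). *Ifi204* and *Ifi203*, DNA-binding proteins of the PYHIN family, and *Slfn5*, of the Schlafen family, had differences of -0.53, -0.48 and -0.48 (adjusted p = 0.0219, 0.0414 and 0.0402).

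*Apol9b*, an apolipoprotein L gene, was the one that rose, from 32.0 to 49.9 FPKM (median 40.1) in wild-type to 37.7 to 77.1 FPKM (median 57.2) in *Gpr180*KO livers (difference 0.51 ± 0.12, adjusted p = 0.0277). Its near copy *Apol9a*, which may share its reads, had a difference of 0.45 (adjusted p = 0.0553). With median-of-ratios scaling *Il10rb* and *Ifi204* were still called lower, *Apol9a* and *Apol9b* were called higher, and *Ifngr2*, *Ifi27l2b*, *Ifi203* and *Slfn5* were not called. *Ifitm3*, the most abundant of this list at 513 FPKM and a block to viral entry, had a difference of 0.08. None of 13 MHC class I genes (*B2m*, the light chain, was highest with 2604 FPKM and a difference of -0.24) and none of the 3 constitutive proteasome genes (*Psmb7* was highest with 144 FPKM) was called.

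Levels of cell type markers are given because immune cells express many of these genes. Of the 7 markers of recruited and lipid-associated macrophages 5 were tested and 4 were lower in *Gpr180*KO livers: *Ccr2* (-1.43), *Trem2* (-1.82), *Gpnmb* (-2.31) and *Cd68* (-0.69). The sum of all 7 markers was 58.5 to 199 FPKM (median 165) in wild-type and 65.8 to 113 FPKM (median 98.8) in *Gpr180*KO livers. *Lyz2*, which was tested but not called (limma adjusted p = 0.130), made up most of that sum. Its wild-type and *Gpr180*KO medians were 128 and 82.5 FPKM. Of the 6 Kupffer cell markers tested none was called, with sums of 110 to 270 FPKM and 139 to 204 FPKM. None of the markers of T, NK, B and plasmacytoid dendritic cells reached a mean of 1 FPKM, and the T cell genes *Cd3d* and *Cd3e* had means of 0.210 and 0.214 FPKM. Of 6 stellate cell markers 4 were lower (*Col1a1*, *Col3a1*, *Dcn* and *Pdgfrb*), as was the cholangiocyte marker *Sox9*, and with median-of-ratios scaling *Sox9* (adjusted p = 0.121) and *Gpnmb* (0.0528) were not called. None of 6 hepatocyte and 5 endothelial markers tested was called. The 3 neutrophil markers tested were not called either, but their differences were large: *S100a8* -1.07, *S100a9* -1.04 and *Retnlg* -1.50 (limma adjusted p = 0.168, 0.0840 and 0.147). The summed neutrophil markers ran from 2.78 to 38.9 FPKM (median 20.3) in wild-type and from 3.71 to 10.2 FPKM (median 6.80) in *Gpr180*KO livers. The part of these cells in the levels of *Irf8*, *Ifi204* and the other genes above was not tested.

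Levels also varied between mice of the same genotype. That spread is a description and no test of the genotype difference. Among wild-type livers, W317 was the highest library for 25 of the 42 members and W157 the lowest for 14. Among *Gpr180*KO livers KO51 was the lowest for 23 and KO53 the highest for 15. The mean log2 level of the type I targets ran from 2.40 (W157) to 3.10 (W317) in wild-type and from 2.14 (KO51) to 2.73 (KO53) in *Gpr180*KO livers, and the genotype means differed by -0.16 (*Gpr180*KO minus wild-type). The between-mouse SD of a member on the log2 scale had a median of 0.30 in wild-type and 0.38 in *Gpr180*KO livers, and of 0.28 in the latter without KO51. Over all genes tested the medians were 0.21 and 0.32. W317 was also the deepest library, and no infection status is given for any mouse.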

How the data were processed

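Liver poly(A) RNA of 18 mice was sequenced as single reads. The authors used the TopHat Alignment application with the mouse genome mm10, and deposited 1 table of FPKM values per mouse, with a confidence interval and a status for each value. The FPKM are an output of that application, and the annotation behind them is not given in the sources used here. Of the 23847 entries, those that shared a symbol were summed, and 24 genes with failed estimates, no member among them, were left out. No value column was without a sample (0). Counts were not used here, so the depth of a single value is unknown; relative depth came from the most common FPKM ratio to W317 among low genes.

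Genes with a mean of at least 1 FPKM were compared in R 4.3.3 with limma 3.58.1 (lmFit, eBayes with trend, two-sided) on log2(FPKM + 0.1), a scale that understates changes of low genes, with Benjamini-Hochberg adjustment over the 10835 genes and a threshold of 0.05. The steps were tested on simulated data. Group scores are means over genes and have no p. Transcript lengths came from GENCODE M21 and promoters from RefSeq (GRCm38.p6), in Python 3.11.15 (pandas 2.3.3, numpy 2.4.6, scipy 1.17.1). The members and lists were chosen with earlier results of these data known. Values were given for members called, the 2 most abundant and the 2 most different of each role, and from each list the genes called and the most abundant; other names were picked with their values in view. Alternatives were pseudocounts of 1 and 0.01, a minimum of 5 FPKM or none, median-of-ratios and TPM scaling, the title series as a block or alone, weights per library, and each library left out. Those for the pathway lists and the interaction were added after seeing the data. The labels do not tie mice into pairs, so p-values set a genotype difference against the spread between mice. In the main comparison that spread includes any difference between the title series.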

Additional observations from a re-analysis of the deposited data

Results flagged for a closer look

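In 12 of the 84 sets of 9 libraries (42 genes in each genotype), 1 library lay far from the other 8, by a gap that passes Dixon's 95% value of 0.493 of the range on the log2 scale. Chance flags about 1 in 20 such sets. All 12 were in the *Gpr180*KO group, and 10 of them were values of KO51.

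KO51 was far below the others for *Stat2* (8.31 FPKM, the nearest being 12), *Ifih1* (3.70 and 6.52), *Ddx58* (3.72 and 6.23), *Ifit2* (0.640 and 1.21) and *Parp14* (2.58 and 5.22). It was also far below for *Trim25* (10.9 FPKM, the nearest being 16.8), *Eif2ak2* (2.06 and 5.02), *Gbp3* (1.75 and 2.94) and *Gbp7* (0.629 and 2.00). For *Psmb10* it was far above, with 31.3 FPKM against 16.7 for the next library. The 9 low genes have transcripts of 2682 nt (*Gbp3*) or more and *Psmb10* has 1311 nt. The flags of KO51 thus run with transcript length in the same direction as the levels of all genes in this library, and why it differs was not tested.

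The other 2 concerned single genes in other mice. *Irf1* was 9.44 FPKM in KO54, where the nearest library had 14.8 FPKM, and *Zbp1* was 2.34 FPKM in KO52, where the nearest had 4.56 FPKM.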

How the results depend on the processing

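The count of members called lower, 0 in the main comparison, was 1 with TPM scaling, 4 with the title series as a block, 5 in series 1 alone and 4 with weights per library, and 0 to 4 when each library was left out, while the count called higher was 0 throughout. The 4 arose without W157. *Lgals3bp* was called in 6 of 28 alternatives, among them without KO319 (adjusted p = 0.0394), KO321 (0.0437) or KO322 (0.0443). *Ifit2*, *Irf8* and *Oasl2* were each called in 4 of 27, with adjusted p from 0.00724 to 0.332, from 0.00668 to 0.493 and from 0.00427 to 0.585. The count of pathway genes called lower, 6 in the main comparison, was 3 with no minimum, 2 with median-of-ratios scaling, 13 with the block, 0 in series 2 alone, 18 with weights, and 1 (without W133) to 14 (without W157) with a library left out. Of all genes, 4.28% were lower in the main comparison, 1.55% with median-of-ratios scaling, 9.52% with the block, 10.7% with weights and 7.77% without W157. With no minimum 293 of 23328 genes were lower, in series 2 alone 1 of 10725, and without W133 113 of 10817. The count of pathway genes called higher, 1, was 0 with no minimum and in each series alone, 2 with median-of-ratios scaling, the block and weights, and 0 to 2 with a library left out. Over all genes the count called higher, 49, was 20 with no minimum and 116 and 0 in the series alone. It was 112, 122 and 170 with median-of-ratios scaling, the block and weights, and 16 to 89 with a library left out. Of the 7 pathway genes called, *Il10rb* was called in 27 of 28 alternatives, *Ifi204* in 26, *Apol9b* in 21, *Ifngr2* in 19 and *Ifi27l2b* in 16 of 28, *Slfn5* in 11 and *Ifi203* in 9 of 27. The cause was not tested.

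Among the 17 members whose sign was followed in each setting, those that the naming rule chose, it turned for 6, and none of these was called in the main comparison. With median-of-ratios scaling *Irf1* was 0.11 and *Iigp1* 0.032. With TPM scaling *Psmb8* was -0.0049. In series 1 alone *Ddx58* was 0.016, *Iigp1* 0.064, *Psmb8* -0.066 and *Psmb10* -0.049. In series 2 alone *Irf1* was 0.10 and *Gbp2* 0.075. With weights *Iigp1* was 0.040, *Psmb8* -0.041 and *Psmb10* -0.066. With a library left out *Irf1* ran from -0.075 to 0.072, *Iigp1* from -0.19 to 0.013, *Psmb8* from -0.042 to 0.081 and *Psmb10* from -0.062 to 0.10. Without KO51, *Iigp1* was 0.013, *Psmb8* -0.042 and *Psmb10* -0.062. The mean difference over all members stayed between -0.18 and -0.0046 in the other settings and between -0.16 and -0.08 with a library left out. No paired analysis was possible because replicate numbers were given in accession order, and the labels do not say that a mouse number found in both genotypes marks a pair. FPKM without counts limits what can be said of the genes near or under 1 FPKM, *Mx1* and *Oas2* first.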
